A study of Mus musculus with 9 samples.

Results

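The keratins, the late cornified envelope (Lce) proteins and the small proline-rich (Sprr) proteins are structural proteins of epithelia, and their genes were read here in cultured kidney tubule cells. The set was every protein-coding gene of the table whose symbol begins with Krt or Lce followed by a digit, or with Sprr, a rule that uses names and no measured value. It held 69 of the 31167 genes listed, namely 43 keratins, 12 Lce genes and 14 Sprr genes. Of these, 14 reached a mean of 0.5 FPKM over the 9 libraries and are described one by one. FPKM counts fragments per kilobase of exon at a fixed library size, so levels of different genes can be set side by side.

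Keratins are the intermediate filament proteins of epithelial cells. A type I chain pairs with a type II chain, and KRT8 with KRT18 forms the basic filament of simple epithelia such as the renal tubule, with KRT7, KRT19 and KRT20 added in ducts, urothelium and injured epithelium. The Sprr and Lce proteins, together with involucrin and loricrin, are cross-linked by transglutaminases into the cornified envelope, the protein shell under the membrane of the outermost cells of skin.

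The cells were primary renal tubular epithelial cells from C57BL/6 mice, in 3 groups of 3 libraries. Sham cells were the untreated negative control. H/R cells were kept at 1.0% oxygen in medium without glucose for 6 h and then returned to normal oxygen and complete medium for 18 h, a culture model of ischemia and reperfusion. EGR1OV cells received a plasmid that expresses the transcription factor Egr1 from the cytomegalovirus promoter, delivered with the reagent EndoFectin Max, and only the H/R libraries carry H/R as a treatment in the labels. The labels name no group with an empty plasmid, so effects of plasmid delivery and of Egr1 itself cannot be told apart. They also do not say whether the 3 libraries of a group came from separate cultures, and p-values then measure only the spread between these libraries, which may be technical.

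Egr1 itself was at 6.09 to 6.91 FPKM (Sham), 7.48 to 8.57 (H/R) and 40.1 to 45.7 (EGR1OV), a change of +2.56 on the log2(FPKM + 1) scale in EGR1OV against Sham. Depth recovered from the values was 16183617 to 18384022 reads per library. Of 14 tubular epithelial markers in the table, 9 were at a mean of 0.5 FPKM or more, and the summed level of all 14 was 365 to 376 FPKM in Sham libraries, 372 to 381 in those of H/R and 372 to 385 in those of EGR1OV. Its members did not move together in EGR1OV against Sham, where Lrp2 (ratio of means 0.34), Aqp1 (0.283) and Havcr1 (0.712) fell and Epcam (1.32) rose, the last not called under either scaling alternative (+0.37 and +0.34) or without EGR1OV 2 (+0.36). Umod was listed at 0 in all 9 libraries, and Cubn, Slc34a1, Slc12a1 and Slc12a3, transport proteins that define tubule segments, were under 0.5 FPKM. The summed level of 8 leukocyte markers was 139.7 to 144 FPKM (Sham), 116 to 123 (H/R) and 22.1 to 26.5 (EGR1OV). All 7 leukocyte markers that were tested fell in EGR1OV against Sham, while Ptprc was under 0.5 FPKM. The part of leukocyte RNA in the results below was not tested, and in bulk RNA fewer cells of a type and less RNA per cell cannot be told apart.

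Keratins of simple epithelia made up most of the keratin RNA in every library. Summed over the 43 genes, keratin RNA was 2034 ± 24.4 FPKM in Sham libraries, 1862 ± 53.0 in those of H/R and 1261 ± 63.6 in those of EGR1OV (SD, n = 3 each). Krt8 and Krt18 together were 83.4 to 83.7% of this sum (Sham), 83.0 to 83.2% (H/R) and 81.5 to 81.9% (EGR1OV). In Sham the order by mean level was Krt8, Krt18, Sprr1a, Krt17, Krt19, Krt7, Lce1g, Krt20, Krt80, Lce1h, Lce1f, Krt10, Lce6a and Krt16. The Sham libraries of Krt19 and Krt7 overlapped, as did those of each pair of neighbours from Lce1g to Lce1h, while the other neighbours in this order did not overlap. All 69 genes together took 0.842 to 0.894% of the summed FPKM of a Sham library, 0.799 to 0.891% in H/R and 0.496 to 0.529% in EGR1OV.

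**Figure D1:**
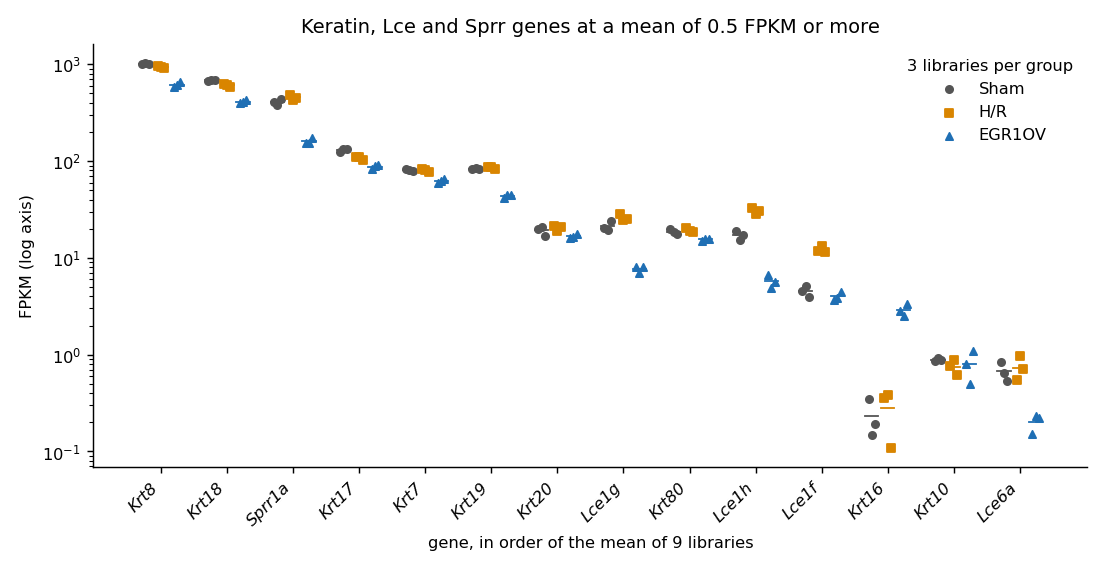
FPKM on a log axis of the 14 genes at a mean of 0.5 FPKM or more, in order of the mean of the 9 libraries. Points are libraries (3 per group), and short lines are group means. Krt8 is at the top, and Krt16 is the gene whose EGR1OV points, 2.50 to 3.30 FPKM, stand above all others of that gene.

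The remaining 55 genes were under the limit. Of these, 10 had a mean from 0.1 to 0.5 FPKM, 39 were above 0 and under 0.1, and 6 were listed at 0 in all libraries (Krt26, Krt35, Krt36, Krt74, Krt81 and Lce3f). In 5 of the 55, at least 1 library was at 0.5 FPKM or more. The genes just inside the limit were Lce6a (mean 0.538 FPKM), Krt10 (0.812) and Krt16 (1.13), and those just outside were Krt87 (0.449), Krt42 (0.288) and Lce1b (0.267). By family, 9 of 43 keratins, 4 of 12 Lce genes and 1 of 14 Sprr genes were inside. Krt16 passed through EGR1OV alone, so it had to differ in that group.

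The question of the first comparison was which genes respond to the Egr1 plasmid. Of the 14 genes, 9 were called in EGR1OV against Sham, 8 lower and 1 higher, where 16.4% of all 13985 genes tested were called (6.51% lower and 9.87% higher). Calling required an adjusted p below 0.05 in limma and 1.3-fold or more on the log2(FPKM + 1) scale, on which low genes appear to change less than they do. The keratins Krt8, Krt18, Krt19 and Krt17 fell, as did the cornified envelope genes Sprr1a, Lce1g, Lce1h and Lce6a, and Krt16 rose. Krt16 passed the filter through EGR1OV alone and had to differ there, so its place in these counts is not an independent result. Lce6a passed it only through Sham and H/R, where it was higher, on few reads. Its place among the lower genes is therefore not an independent result either. Without the fold threshold 1 was higher and 10 were lower, where 45.9% of all genes passed. The median change of the 14 was -0.53, and that of all genes tested was 0.02. The share of higher genes among all those called was 60.3% with the deposited values, 55.8% with median-ratio scaling and 45.9% with quantile normalization. The groups did not overlap in 11 of the 14, a separation that 55.7% of all genes also showed. The exact two-sided permutation test cannot go below 0.1 with 3 libraries against 3, so it is given once as this limit.

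The second comparison asked what hypoxia and reoxygenation change. Here 3 of the 14 were called against Sham, at a threshold of 1.2-fold: Lce1f and Lce1h rose and Krt17 fell. For all genes the share called was 4.25% (1.6% higher, 2.65% lower). Without the fold threshold 2 were higher and 2 lower, where 11.7% of all genes passed, and the groups did not overlap in 6 of the 14, as in 33.6% of all genes. The median change of the 14 was 0.05 and that of all genes was -0.03. Higher genes were 37.7% of all calls with the deposited values, 57.9% with median-ratio scaling and 56.5% with quantile normalization. Both comparisons use the same Sham libraries, so they are not independent. In EGR1OV against H/R, again at 1.3-fold, 8 of the 14 were lower and Krt16 was higher, where 18.9% of all genes were called (6.94% lower and 11.9% higher). Krt16 again had to differ there, because of the filter, and Lce6a, among the lower genes, passed it only through Sham and H/R. Without the fold threshold 12 were lower and 1 higher, where 51.0% of all genes passed, and 13 of the 14 did not overlap, as did 58.6% of all genes. The higher share of all calls was 63.2%, 52.1% and 42.5% under the same 3 scalings.

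**Figure D2:**
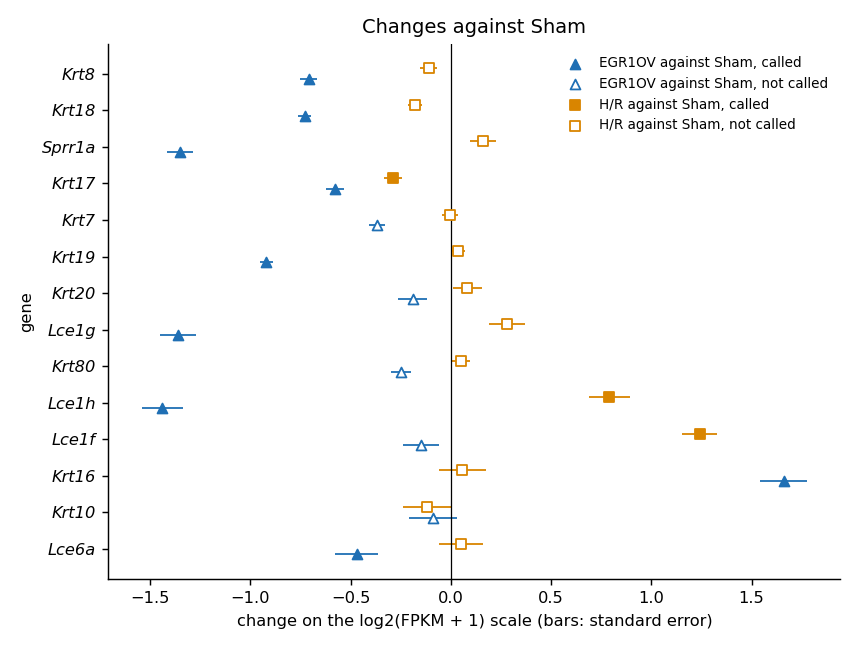
Change against Sham of the 14 genes on the log2(FPKM + 1) scale, with the standard error as a bar. Triangles are EGR1OV and squares are H/R, and filled symbols mark genes called. The H/R symbols lie near 0 for most keratins, while Lce1h sits at -1.44 in EGR1OV and +0.79 in H/R.

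Krt8 (ENSMUSG00000049382, chromosome 15 from 101996711 to 102004342, minus strand) encodes the type II chain of the simple epithelial pair. It was at 1003, 1026 and 1012 FPKM in Sham libraries, 966, 942 and 915 in those of H/R and 581, 617 and 656 in those of EGR1OV. The EGR1OV libraries were below all others, and those of H/R were below those of Sham. The change was -0.71 in EGR1OV against Sham (standard error 0.0418, limma adjusted p 8.77e-07), a ratio of means of 0.61. After H/R it was -0.11 (limma adjusted p 0.131).

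Krt18 (ENSMUSG00000023043, chromosome 15 from 102028216 to 102032026, plus strand) encodes the type I partner and lies beside Krt8. Its levels were 670, 688 and 696 FPKM (Sham), 625, 605 and 589 (H/R) and 398, 409 and 429 (EGR1OV). As with Krt8, the 3 groups did not overlap and EGR1OV was lowest. The change was -0.73 in EGR1OV (standard error 0.0341, limma adjusted p 1.77e-07) and -0.18 in H/R (limma adjusted p 0.0132), the latter under the 1.2-fold threshold. Krt8 shared 26.9% of its 50-base stretches with the pseudogene Krt8-ps, so reads of the pair may be divided between them by the authors' counting.

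Both partners of the filament fell in EGR1OV, to 0.61 of the Sham mean for Krt8 and 0.602 for Krt18. The ratio of Krt8 to Krt18, in FPKM, was 1.45 to 1.5 in the Sham libraries, 1.55 to 1.56 in those of H/R and 1.46 to 1.53 in those of EGR1OV. Over the 3 type II and 6 type I keratins inside the limit, the ratio of type II to type I was 1.23, 1.21 and 1.19 in Sham, 1.27 in each H/R library and 1.21, 1.24 and 1.26 in EGR1OV. In EGR1OV the ratio overlapped with Sham, while each H/R library was above each Sham library.

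**Figure D3:**
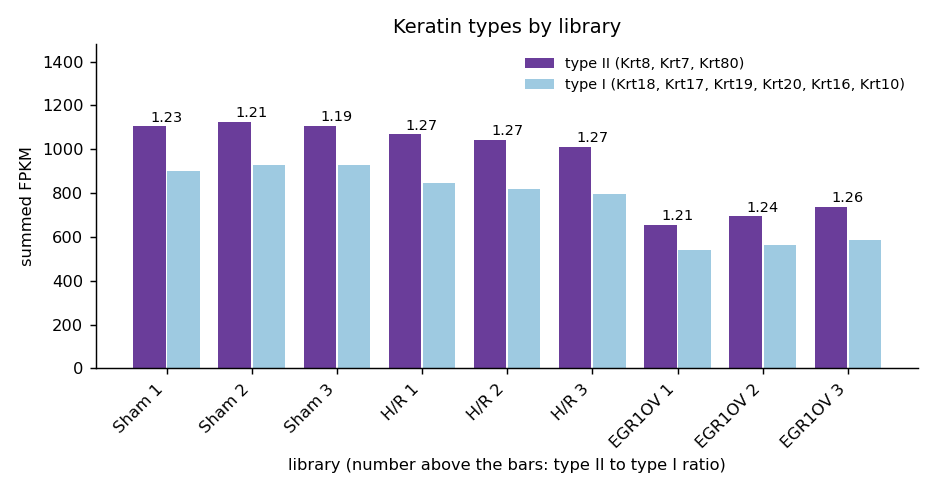
Summed FPKM of type II keratins (dark bars) and type I keratins (light bars) in each of the 9 libraries, with the type II to type I ratio above each pair. Type II sums are 1106 to 1125 (Sham), 1011 to 1068 (H/R) and 655 to 737 (EGR1OV).

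Krt19 (ENSMUSG00000020911, chromosome 11 from 100140810 to 100148665, minus strand), a type I keratin of ducts, fell most among the keratins called lower in EGR1OV. It stood at 83.2, 84.7 and 81.9 FPKM in Sham libraries, 87.8, 86.1 and 82.6 in those of H/R and 41.7, 44.5 and 44.7 in those of EGR1OV. Sham and H/R overlapped, and EGR1OV was below both. Its change was -0.92 in EGR1OV (standard error 0.0343, limma adjusted p 3.52e-08) and 0.04 after H/R (limma adjusted p 0.528).

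Krt7 (ENSMUSG00000023039, chromosome 15 from 101411043 to 101430313, plus strand), its usual type II companion in ducts, was at 82.9, 80.6 and 78.8 FPKM (Sham), 82.2, 81.8 and 77.6 (H/R) and 58.9, 62.5 and 64.8 (EGR1OV). The change in EGR1OV was -0.37 (standard error 0.0392, limma adjusted p 5.02e-05), just under the 1.3-fold threshold, with every EGR1OV library below every Sham and H/R library. Without Sham 3 it was -0.39, without EGR1OV 2 -0.38 and without EGR1OV 3 -0.41, all past that threshold. It was also past it with a pseudocount of 0.1 FPKM (-0.38), median-ratio scaling (-0.40), quantile normalization (-0.44) and voom on recovered reads (-0.38), so whether Krt7 is called depends on these choices.

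Krt20 (ENSMUSG00000035775, chromosome 11 from 99428403 to 99438150, minus strand), known as a marker of umbrella cells and of injured tubule, was at 19.9, 20.9 and 17.0 FPKM in Sham libraries, 21.4, 18.9 and 21.0 in those of H/R and 16.1, 16.6 and 17.5 in those of EGR1OV. Against Sham its change was -0.19 in EGR1OV (limma adjusted p 0.0615) and 0.08 after H/R (limma adjusted p 0.508), and the groups overlapped in both. In EGR1OV against H/R it was -0.27 (limma adjusted p 0.0122), without overlap but under 1.3-fold. Quantile normalization brought that change past the threshold (-0.39). Krt80 (ENSMUSG00000037185, chromosome 15 from 101349571 to 101370125, minus strand), a type II keratin of epithelial cells, was at 19.9, 18.4 and 17.6 FPKM (Sham), 20.2, 19.1 and 18.6 (H/R) and 14.9, 15.8 and 15.8 (EGR1OV). The change of -0.25 in EGR1OV had a limma adjusted p of 0.00271 and did not reach 1.3-fold, although the groups did not overlap. Exons of Krt7, Krt8, Krt10 and Krt80 overlap a gene on the opposite strand, and how strand was counted is not stated in the sources used here.

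Krt17 and Krt16 are keratins that skin makes after wounding. Krt17 (ENSMUSG00000035557, chromosome 11 from 100256217 to 100261029, minus strand) was at 125, 133 and 133 FPKM in Sham libraries, 109, 109 and 102 in those of H/R and 82.3, 88.4 and 90.5 in those of EGR1OV. The order Sham above H/R above EGR1OV held without overlap. It fell by 0.58 in EGR1OV (limma adjusted p 6.12e-06) and by 0.29 in H/R (limma adjusted p 0.00517). The call in H/R was lost under either scaling alternative (-0.25 each) and without H/R 3 (-0.26).

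Krt16 (ENSMUSG00000053797, chromosome 11 from 100246091 to 100248902, minus strand), the neighbour of Krt17, moved the other way. Its levels were 0.350, 0.147 and 0.194 FPKM (Sham), 0.355, 0.382 and 0.108 (H/R) and 2.85, 2.50 and 3.30 (EGR1OV). These rest on 4 to 9 reads in the Sham libraries, 3 to 11 in those of H/R and 64 to 87 in those of EGR1OV. Every EGR1OV library was above every other library. The change was +1.66 (standard error 0.117, limma adjusted p 3.29e-06), with 12.5 as the ratio of means, and was +3.22 with a pseudocount of 0.1 FPKM and +3.63 with voom on recovered reads. Because Krt16 passed the filter through EGR1OV alone, this p-value is not independent support for the rise. Of the 50-base stretches of Krt16, 37.6% occur in other genes, so its reads are partly uncertain. Gm11597 shares the most of them, followed by Krt14 and Krt17. Krt10 (ENSMUSG00000019761, chromosome 11 from 99385254 to 99389364, minus strand), a keratin of skin layers above the basal one, was at means of 0.891 ± 0.0298, 0.749 ± 0.131 and 0.795 ± 0.302 FPKM in Sham, H/R and EGR1OV (SD, n = 3 each), with limma adjusted p of 0.584 and 0.579 against Sham.

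On the cornified envelope side, the promoters of Lce1g, Lce1h and Sprr1a are shown because they had the largest falls in EGR1OV on the log2(FPKM + 1) scale. Lce6a had a lower ratio of means, 0.3, but rests on few reads. The promoter table used here, from RefSeq, holds 9 of the 14 genes (GRCm38.p6, 250 bases before the start, 5′ to 3′ on the strand of the gene). These starts are not always the gene ends given in this text. The Sprr1a window reaches into the gene as listed, and the Krt7 window lies inside it. Lce1g (chr3:92752339-92752588, minus strand) and Lce1h (chr3:92765066-92765315, minus strand) have capitals for the 39 bases next to the start that both share. Sprr1a (chr3:92485882-92486131, minus strand) has capitals for TGACTCA, the AP-1 motif, read on the opposite strand, and for TATAAA.
Lce1g: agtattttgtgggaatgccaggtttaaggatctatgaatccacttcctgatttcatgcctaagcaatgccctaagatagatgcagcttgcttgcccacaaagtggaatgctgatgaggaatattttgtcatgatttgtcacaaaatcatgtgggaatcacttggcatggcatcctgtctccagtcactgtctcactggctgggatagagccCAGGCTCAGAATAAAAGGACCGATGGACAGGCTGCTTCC
Lce1h: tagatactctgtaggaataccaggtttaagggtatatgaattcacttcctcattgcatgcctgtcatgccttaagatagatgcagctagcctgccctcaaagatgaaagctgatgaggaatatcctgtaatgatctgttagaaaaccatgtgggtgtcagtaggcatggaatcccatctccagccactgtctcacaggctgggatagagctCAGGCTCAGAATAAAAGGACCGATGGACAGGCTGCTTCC
Sprr1a: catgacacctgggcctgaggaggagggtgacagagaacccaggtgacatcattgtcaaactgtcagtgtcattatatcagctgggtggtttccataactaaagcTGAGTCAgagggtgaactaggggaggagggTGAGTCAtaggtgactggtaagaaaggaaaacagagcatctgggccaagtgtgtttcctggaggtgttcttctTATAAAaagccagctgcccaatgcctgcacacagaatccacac
The aligned windows of Lce1g and Lce1h were 84.5% identical, and the next closest of the windows compared was 51.1%. Searched on both strands were the TATA box TATAAA, the hypoxia-response core as ACGTG or as GCGTG, the EGR site as GCGTGGGCG or as GCGGGGGCG, the AP-1 motif, the GC box GGGCGG, the KLF motif CACCC and an interferon element. GCGTG lies within GCGTGGGCG. Sprr1a held 2 matches of TGACTCA, which 4.46% of 32851 windows hold, 4 of CACCC (52.0%) and 1 of TATAAA (12.4%). One CACCC match in Sprr1a overlaps a TGACTCA match. None of the 9 windows held an EGR site (0.536% and 2.57% of all windows), ACGTG (16.6%) or the interferon element (2.98%). GCGTG (28.2%) matched in Krt18 and Krt10, and GGGCGG (32.7%) in Krt7. Besides Sprr1a, CACCC matched in Krt7, Krt8, Krt18, Krt10, Krt20 and Lce1h, and TATAAA in Krt10, Krt20 and Lce6a. TGACTCA matched in Sprr1a only.

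Sprr1a (ENSMUSG00000050359, chromosome 3 from 92483952 to 92485895, minus strand) was the only Sprr gene inside the limit. It is a cross-linked envelope protein of skin that other epithelia also make under stress. Its levels were 405, 381 and 438 FPKM (Sham), 482, 432 and 452 (H/R) and 155, 152 and 172 (EGR1OV). EGR1OV was below both other groups, while Sham and H/R overlapped. The change was -1.35 in EGR1OV (standard error 0.0639, limma adjusted p 2e-07), a ratio of means of 0.392, and +0.16 in H/R (limma adjusted p 0.143). Its promoter is the one with the AP-1 matches printed above.

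Lce1f, Lce1g and Lce1h lie in this order on chromosome 3 and encode envelope proteins made late in skin. Lce1g (ENSMUSG00000027919, chromosome 3 from 92750148 to 92752338, minus strand) was at 20.3, 19.6 and 24.2 FPKM in Sham libraries, 28.6, 24.5 and 25.5 in those of H/R and 8.07, 6.95 and 8.09 in those of EGR1OV. Its 3 groups did not overlap, with H/R highest and EGR1OV lowest. The change was -1.36 in EGR1OV (standard error 0.0887, limma adjusted p 1.91e-06). After H/R it was +0.28 (limma adjusted p 0.0712), and +0.37 without Sham 3 (limma adjusted p 0.0329).

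Lce1h (ENSMUSG00000049593, chromosome 3 from 92763215 to 92765065, minus strand) rose in H/R and fell in EGR1OV. Levels were 19.0, 15.4 and 17.1 FPKM (Sham), 32.4, 28.3 and 30.2 (H/R) and 6.65, 4.85 and 5.64 (EGR1OV), without overlap between groups. The change was +0.79 in H/R (standard error 0.102, limma adjusted p 0.00247), a ratio of means of 1.76, and -1.44 in EGR1OV (limma adjusted p 3.37e-06), a ratio of 0.333. The change between EGR1OV and H/R was -2.23 (limma adjusted p 1.49e-07).

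Lce1f (ENSMUSG00000042124, chromosome 3 from 92718685 to 92720350, minus strand) had the largest rise of the 14 in H/R. It was at 4.51, 5.12 and 3.99 FPKM in Sham libraries, 11.7, 13.2 and 11.4 in those of H/R and 3.64, 3.87 and 4.49 in those of EGR1OV. H/R stood above both other groups, which overlapped each other. The change was +1.24 in H/R (standard error 0.0893, limma adjusted p 0.000159), a ratio of means of 2.66. In EGR1OV it was -0.15 (limma adjusted p 0.21). The ratio of Lce1f to Lce1g was 0.16 to 0.26 (Sham), 0.41 to 0.54 (H/R) and 0.45 to 0.56 (EGR1OV), and that of Lce1h to Lce1g was 0.70 to 0.94, 1.13 to 1.18 and 0.70 to 0.82. From 13.8% to 19.9% of the 50-base stretches of Lce1f, Lce1g and Lce1h also occur in other genes, mostly of their own cluster, so counts of the 3 are partly uncertain.

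Lce6a (ENSMUSG00000086848, chromosome 3 from 92620081 to 92621660, minus strand) was at 0.841, 0.649 and 0.533 FPKM in Sham libraries, 0.544, 0.958 and 0.709 in those of H/R and 0.151, 0.231 and 0.224 in those of EGR1OV. EGR1OV was below both groups, on 2 or 3 reads per library, at or under the floor of 3 reads. The change was -0.47 (limma adjusted p 0.00605), and was -1.35 with a pseudocount of 0.1 FPKM and -1.56 with voom on recovered reads. Lce6a passed the filter of 0.5 FPKM through Sham and H/R alone, while its EGR1OV mean was 0.202 FPKM. Its p-value is therefore not independent support for the fall.

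**Figure D4:**
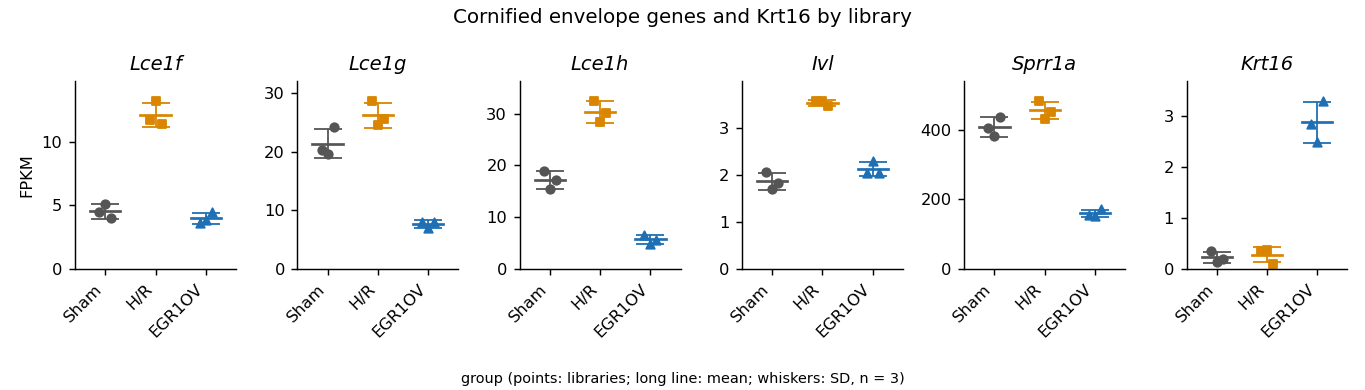
FPKM of Lce1f, Lce1g, Lce1h, Ivl, Sprr1a and Krt16 in each library (points), with the mean as a long line and the SD as whiskers (n = 3 per group); each panel has its own axis from 0. H/R is highest without overlap for Lce1f, Lce1g, Lce1h and Ivl, and EGR1OV is highest for Krt16. For Sprr1a the H/R mean is highest, but its libraries overlap those of Sham.

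Other genes of the filament and the envelope were read from lists. For comparison, 9.87% of all genes were called higher and 6.51% lower in EGR1OV against Sham. In H/R against Sham these shares were 1.6% and 2.65%, and in EGR1OV against H/R 11.9% and 6.94%. Of 9 tested envelope genes outside the Sprr and Lce families, 1 rose and 2 fell in EGR1OV against Sham, and Ivl alone rose in H/R. Ivl, which encodes involucrin, was at 2.06, 1.70 and 1.83 FPKM (Sham), 3.57, 3.57 and 3.46 (H/R) and 2.04, 2.29 and 2.04 (EGR1OV). In H/R its change was +0.66 (standard error 0.0612, limma adjusted p 0.000493), a ratio of means of 1.90. In EGR1OV the changes were +1.69 for Pglyrp3, an antibacterial protein of epithelia (0 to 3 reads in Sham and 45 in each EGR1OV library, so the size depends on the pseudocount and was +5.08 with voom on recovered reads), -0.59 for Scel and -0.43 for S100a10. Pglyrp3 passed the filter through EGR1OV alone and, like Krt16, had to differ there. EGR1OV against H/R called 1 higher, again Pglyrp3, and 4 lower, of which Ivl was lowest at -0.54 and Scel was -0.47. The call of Lor among the 4 was lost with no filter (limma adjusted p 0.0835) and without H/R 1, H/R 3 or any 1 EGR1OV library (0.0501 to 0.0995).

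Of 4 tested transglutaminases and processing enzymes, 10 others of the list being under the limit, St14, the membrane protease matriptase, rose by 0.99 in EGR1OV and Tgm2 fell by 0.47, both against Sham. In H/R limma called 0 of the 4, and 1 of them, St14, had an unadjusted p under 0.05 (limma adjusted p 0.0211), with a change under 1.2-fold. Against H/R, St14 was +0.86 and Tgm2 was -0.38 in EGR1OV, the latter not called without H/R 1 (-0.35), H/R 2 (-0.38) or EGR1OV 1 (-0.31).

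The 20 filament partners and desmosome genes were all tested. In EGR1OV, 1 of them was called higher and 2 lower against Sham, and again against H/R. All genes were called about as often, 16.4% against Sham and 18.9% against H/R, so these calls do not set the list apart. In EGR1OV, Pkp1, a desmosomal plaque protein, rose by 0.86, Dsc2 fell by 0.57 and Nes by 0.40 (the last not called without Sham 2, at -0.33, or EGR1OV 3, at -0.35). In H/R, Pkp1 rose by 0.52, and Tchp, a keratin-binding protein, fell by 0.26, a call lost on leaving out any 1 Sham or H/R library or EGR1OV 3, with values from -0.30 to -0.23. That call was also lost under both scalings, with no filter, with the replicate block and in the fit of the groups compared (limma adjusted p 0.0509 to 0.123). Against H/R, Dsc2 was -0.55, Nes -0.44 and Tchp +0.46 in EGR1OV. Vim was at 518 to 538 FPKM in Sham libraries, 492 to 523 in those of H/R and 404 to 414 in those of EGR1OV, a change of -0.37 in EGR1OV (limma adjusted p 5.05e-06) under 1.3-fold, called with median-ratio scaling (-0.40) and without Sham 1 or EGR1OV 3 (-0.38 each). Dsp, the desmosome protein that anchors keratin, was at a mean of 20.1 FPKM in Sham and 20.2 in both other groups.

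Among 13 tested regulators of keratinocyte and simple epithelial genes, 5 rose in EGR1OV against Sham, where 9.87% of all genes were called higher. Cebpb rose by 1.92, Ehf by 1.69 and Zfp750 by 1.08, and Klf4 by 0.60. Against H/R, Cebpb was +1.90, Ehf +1.57 and Elf3 +1.25. In H/R against Sham, Maf rose by 0.31, a call lost without Sham 3 (+0.25), H/R 2 or H/R 3 (+0.29 each). Klf5 was at 5.75 to 6.10 FPKM in Sham and 4.08 to 5.33 in EGR1OV (limma adjusted p 0.00884, under 1.3-fold), and Grhl2 was at 2.77 to 3.16 and 3.07 to 3.48 (limma adjusted p 0.138).

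Markers of other epithelia were low. The summed level of 7 squamous markers was 2.78 to 3.74 FPKM (Sham), 4.79 to 5.39 (H/R) and 3.00 to 3.10 (EGR1OV), with Trp63, Flg, Dsg1a, Dsg3 and Calml3 under 0.5 FPKM and only Ivl and Lor above it. For 7 urothelial markers the sums were 3.26 to 3.85, 3.06 to 3.27 and 3.86 to 5.33 FPKM. Within that sum Foxa1, a transcription factor, rose from a mean of 1.56 FPKM in Sham to 2.74 in EGR1OV. Of the uroplakins tested, Upk3b fell to 0.49 of its Sham mean and to 0.465 of its H/R mean. Upk1a went the other way, with ratios of means of 1.26 against Sham and 1.82 against H/R. It was called in neither (limma adjusted p 0.265 and 0.0191). The endothelial sums were 9.81 to 10.1, 9.79 to 10.1 and 6.76 to 7.43 FPKM, the fibroblast sums 32.8 to 34.5, 39.3 to 40.6 and 37.9 to 42.9, and the podocyte and mesothelial sums 14.2 to 15, 15.1 to 15.9 and 17.0 to 18.0. The part of these cell types in the changes was not tested.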

How the data were processed

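RNA-seq of 9 libraries was deposited as a single FPKM table that the authors scaled to exon length and library size, one column for each library. The processing notes of the submitters name HISAT2 2.1.0, Bowtie2 2.2.3, TopHat2 and mm9. Gene positions in the table equal GENCODE M21 (GRCm38) in 94.7% of genes, so coordinates are given as listed and read as GRCm38. Counter and strand setting are not given in the sources used here.

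Groups came from the titles. FPKM is not a count, so log2(FPKM + 1) of the 13985 genes at a mean of at least 0.5 FPKM was fitted over all 9 libraries in limma 3.58.1 under R 4.3.3 (eBayes with a trend, two-sided, Benjamini-Hochberg adjusted across all of them). Thresholds were an adjusted p of 0.05 with 1.3-fold for both EGR1OV comparisons and 1.2-fold for H/R versus Sham. The study used both thresholds against Sham. Reads were recovered from the steps of FPKM and exon length, and 94.0% of 162948 values were whole within 0.02 reads. The floor of 3 reads covers counting error alone, because PCR copies were not marked by molecular identifiers.

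The rule for members uses names alone, but it and the lists were chosen with earlier results of these data known, so neither is independent support. Genes named are those at a mean of 0.5 FPKM or more, plus up to 3 called genes per partner list and comparison, Vim, Dsp, Klf4, Klf5 and Grhl2. Results for 1 gene of the regulator list are not reported here. Code was tested on simulated data. Alternatives were a pseudocount of 0.1, filters of none and 1 FPKM, median-ratio and quantile scaling, the replicate block, no trend, fits of the 2 groups compared, voom on recovered reads, no fold threshold and each library left out.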

Additional observations from a re-analysis of the deposited data

How the results depend on the processing

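Of the changes of the 14 genes under the alternatives, 720 kept their direction and side of the threshold, 15 passed it newly, 3 no longer passed it and 12 changed sign. Each sign change was in a comparison where that gene was not called. Krt7 in H/R against Sham was 0.0354 after median-ratio scaling, 0.016 after quantile normalization, 0.0146 without Sham 1 and 0.0219 without H/R 3. Krt10 in EGR1OV against H/R was -0.00128 and -0.0138 under the same scalings, -0.0308 without H/R 3 and -0.0925 without EGR1OV 3, and against Sham 0.0377 without EGR1OV 2. Krt16 in H/R was -0.00173 without H/R 2, and Lce6a in H/R was -0.0116 without Sham 3 and -0.0398 without H/R 2. Quantile normalization also turned S100a11 in EGR1OV against Sham from -0.18 (limma adjusted p 0.006) to 0.25 (limma adjusted p 0.00133). The direction of S100a11 there depends on the scaling. In EGR1OV against H/R it turned Pax8 and Col1a2 from 0.12 each to -0.00774 and -0.00384. Leave-one-out values of these reached -0.0217 for Krt7, 0.16 for Krt16 and 0.13 for Lce6a in H/R, and -0.21 and 0.15 for Krt10 in EGR1OV against Sham and against H/R. The cause was not tested.

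With no fold threshold 6417 genes were called in EGR1OV against Sham, 1635 in H/R against Sham and 7135 in EGR1OV against H/R. With voom on recovered reads 995 were called in H/R against Sham. Leaving out 1 library gave 2238 to 2373, 449 to 579 and 2583 to 2703 genes, and 9 to 10, 2 to 4 and 9 to 10 of the 14. With a limit of 1 FPKM, Krt10 and Lce6a were not tested.

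The labels state no batch for the replicate numbers. Same-numbered libraries had deviations correlated at -0.0206 to 0.0618 over 9 pairs and others at -0.0681 to 0.0668 over 18. Deviations were taken from the mean of each group's own libraries, so these values constrain each other. They cannot settle whether a batch was shared. A fit with the number as a block called 2309 genes in EGR1OV against Sham, 516 in H/R against Sham and 2654 in EGR1OV against H/R. In the same order it called 9, 3 and 9 of the 14. Tchp (limma adjusted p 0.0923) and the leukocyte marker Adgre1 (0.0712) lost their calls in H/R against Sham. Precision of Lce6a and Krt16 was limited by few reads.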

Other observations

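Genes with family names outside the 69 had values of their own. Sprr2g, listed in the table as a polymorphic pseudogene and so outside the set, was at 6.35, 6.08 and 7.17 FPKM in Sham, 4.56, 6.6 and 4.24 in H/R and 12.9, 11.7 and 16.2 in EGR1OV. It rose by 0.94 in EGR1OV against Sham (standard error 0.148, limma adjusted p 0.000675), a ratio of means of 2.08, while Sprr1a fell. After H/R its change was -0.31 (limma adjusted p 0.204). Krt8-ps was at 14.3, 12.4 and 14.9 FPKM in Sham, 12.6, 11.9 and 12.8 in H/R and 9.18, 8.22 and 9.31 in EGR1OV, a change of -0.59 in EGR1OV against Sham (limma adjusted p 0.000101). It shares 514 of the 1909 stretches of 50 bases of Krt8, so its level and that of Krt8 are not separate readings.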
